A study of Mus musculus with 6 samples.

Results

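The Zfp genes described here are mouse zinc finger genes whose symbol in the array's probe annotation is Zfp followed by a number and at most 1 letter, with Zfp24, Zfp473 and Zfp488 left out. A gene was kept if at least 1 of its probes had a spot median, the raw brightness of the spot, above 100 on all 6 arrays, and every such probe was used. This gave 140 probes of 135 genes, out of 306 genes and 335 probes with such a symbol and out of 23473 probes on the array. The genes were thus selected on raw brightness on all 6 arrays. Since each array had to exceed 100, a difference between the groups could decide whether a dim probe was kept. The genes just inside the limit were Zfp984, Zfp64 and Zfp455, whose lowest spot medians were 100.5, 100.7 and 100.9. Those just outside it were Zfp87, Zfp747 and Zfp653, with 99.55, 99.09 and 99.03. For comparison, blank spots averaged 58.9 to 61.9 per array.

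RNA came from oligodendrocyte precursor cells, the glial progenitors of the myelin-forming cells, of E15.5 forebrains of Jcl:ICR mouse embryos. The Chd7 KD group held 3 samples infected with a knockdown retrovirus for Chd7, a gene for a chromodomain protein that moves nucleosomes with energy from ATP. The Control group held 3 samples infected with a control retrovirus. Both groups received FGF2 and PDGF-AA in culture and were harvested 3 days after infection. Every sample had 1 one-colour array. Whether the samples were separate cultures is not stated in the labels, and p-values therefore reflect the spread among these 6 arrays alone, which may be technical. In bulk samples, fewer cells of a type and less RNA per cell cannot be told apart.

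Zfp is the mouse prefix for zinc finger proteins. Most of them belong to the C2H2 class, in which pairs of cysteines and histidines hold a zinc ion and rows of such fingers read DNA. Many also carry a KRAB domain, which recruits the co-repressor Trim28 and through it the histone methyltransferase Setdb1 to silence retroelements and other targets. Others bind RNA, act in ribosome assembly or serve as activators at promoters. KRAB genes lie in clusters of similar copies, so signal from related copies cannot be fully told apart on an array, and probe sequences were not used here.

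Promoter windows of the called genes were searched for shared letters near their start. RefSeq windows (GRCm38.p6, 250 bases before to 50 after a start, on the gene's strand) were found for 116 of the 135 genes and for 15 of the 18 whose signal was lower in Chd7 KD cells. The search, on both strands, covered the CCAAT box, the GC box, spelled GGGCGG, and the ETS core, spelled CCGGAAG. It also covered the E-box, spelled CACGTG, the TATA box, spelled TATAAA, and the CRE, spelled TGACGTCA. The longer NRF1 palindrome, an extended YY1 motif and the ZNF143 core were searched as well. The ZNF143 core was then relaxed, with any base at 2 positions, after windows of the fallen genes had been seen, so matches to it there are a description and no support. No motif contains another, apart from the relaxed core, which covers the strict one. Shown are the windows of the fallen genes with a relaxed core, of Zfp512, which passed without any 1 array, and of Zfp113, the gene that rose. Where a gene has several windows the first in the RefSeq table is given. Capitals mark the relaxed ZNF143 core in either direction.
Zfp184 (chr13:21944844-21945143, + strand): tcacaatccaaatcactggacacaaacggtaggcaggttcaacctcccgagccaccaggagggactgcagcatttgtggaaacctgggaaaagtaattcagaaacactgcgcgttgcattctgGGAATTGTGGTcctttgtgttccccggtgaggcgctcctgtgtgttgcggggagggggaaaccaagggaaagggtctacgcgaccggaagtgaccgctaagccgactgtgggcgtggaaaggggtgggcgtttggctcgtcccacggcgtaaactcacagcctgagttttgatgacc
Zfp637 (chr6:117840931-117841230, + strand): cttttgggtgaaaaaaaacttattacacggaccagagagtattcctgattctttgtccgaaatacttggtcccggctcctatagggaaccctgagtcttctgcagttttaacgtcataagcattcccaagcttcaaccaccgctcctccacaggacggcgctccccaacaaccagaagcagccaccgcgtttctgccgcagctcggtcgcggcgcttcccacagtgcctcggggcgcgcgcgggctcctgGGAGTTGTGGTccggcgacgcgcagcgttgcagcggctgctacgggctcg
Zfp454 (chr11:50887461-50887760, - strand): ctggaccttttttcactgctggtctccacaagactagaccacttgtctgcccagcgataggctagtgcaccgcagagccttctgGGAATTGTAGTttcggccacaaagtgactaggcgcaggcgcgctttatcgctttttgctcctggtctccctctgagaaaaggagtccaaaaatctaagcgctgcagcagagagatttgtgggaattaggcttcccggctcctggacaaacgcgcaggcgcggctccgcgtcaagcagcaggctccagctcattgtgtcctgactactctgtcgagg
Zfp606 (chr7:12478055-12478354, + strand): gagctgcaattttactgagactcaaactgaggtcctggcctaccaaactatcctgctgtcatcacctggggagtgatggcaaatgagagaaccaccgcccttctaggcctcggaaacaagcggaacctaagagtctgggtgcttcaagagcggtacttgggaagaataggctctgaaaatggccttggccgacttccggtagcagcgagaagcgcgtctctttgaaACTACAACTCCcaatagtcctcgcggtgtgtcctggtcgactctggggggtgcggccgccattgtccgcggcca
Zfp512 (chr5:31452186-31452485, + strand): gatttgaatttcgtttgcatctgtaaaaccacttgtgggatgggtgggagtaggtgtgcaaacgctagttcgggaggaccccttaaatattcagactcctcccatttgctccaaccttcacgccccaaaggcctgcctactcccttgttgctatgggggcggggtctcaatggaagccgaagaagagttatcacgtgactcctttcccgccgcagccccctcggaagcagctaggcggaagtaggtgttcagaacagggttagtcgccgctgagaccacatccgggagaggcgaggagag
Zfp113 (chr5:138155695-138155994, - strand): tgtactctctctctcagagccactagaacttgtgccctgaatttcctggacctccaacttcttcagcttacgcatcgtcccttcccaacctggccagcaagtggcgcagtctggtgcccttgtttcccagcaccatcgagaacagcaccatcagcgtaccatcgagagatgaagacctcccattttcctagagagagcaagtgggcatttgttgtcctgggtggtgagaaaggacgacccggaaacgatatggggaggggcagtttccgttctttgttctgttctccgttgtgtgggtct

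The relaxed core was present in the windows of Zfp184, Zfp637, Zfp454 and Zfp606, which were 4 of 15 lower genes (26.7%). It was present in 4 of 101 other members (3.96%) and in 358 of 27025 genes of the table (1.32%). The strict core was found in 1 of the 15 lower genes (Zfp454), in 3 of the 101 other members and in 87 of all genes (0.322%). Per window, of which a gene can have several that overlap, the ETS core was in 27.3% of windows of lower genes, 19.1% of member windows and 8.86% of all windows. The GC box was in 40.9%, 52.5% and 35.7% in the same order, the CCAAT box in 36.4%, 45.4% and 37.4%, and the TATA box in 9.09%, 4.96% and 13.6%. The E-box was in 9.09%, 7.8% and 7.15%, the YY1 motif in 4.55%, 2.84% and 0.852%, the NRF1 palindrome in 0, 3.55% and 0.971%, and the CRE in 0, 2.13% and 1.79%. Member windows were richer in CG dinucleotides than the table as a whole, with a median of 17.0 in windows of lower genes and of members, against 7.0 over all windows, and the median share of G and C was 56.3%, 57.3% and 52.7%. A match gives letters in a window, not a bound site.

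As a check of the labels, the brighter Chd7 probe had log2 intensities of 8.54, 8.44 and 8.48 in Chd7 KD replicates 1 to 3, against 9.44, 9.20 and 9.47 in Control replicates 1 to 3. The log2 difference was -0.88 (SE 0.086, adjusted p = 0.00125 in limma), and the signal was 54.3% of that in Control cells. The other probe read -0.48 (adjusted p = 0.00404). Arrays had a median raw signal of 83.4 to 89.4, with 87% to 89.8% of probes detected. Of 6 precursor markers, 5 exceeded 100 on all arrays and 5 were lower in Chd7 KD cells. The summed linear intensity of the 6 was 9327 to 10607 in Chd7 KD and 11991 to 14149 in Control arrays. Much of that sum is Olig1, the brightest (mean log2 intensity 12.92), which did not pass in limma (-0.24, adjusted p = 0.254). With the replicate number as a block Olig1 passed (0.0388). Of 7 neuronal markers 4 exceeded 100 on all arrays, and 3 were lower (sums 1091 to 1308 in Chd7 KD, 1464 to 1643 in Control). Stmn2 read -0.02, Rbfox3 0.0012 and Syt1 0.20. With that block 4 neuronal markers were lower and Syt1 was higher (adjusted p = 0.0193 in limma). Of 6 astrocyte markers 5 exceeded 100 on all arrays, and none passed in limma, with 1 higher and 1 lower at an unadjusted p below 0.05 (sums 11314 to 12295 in Chd7 KD, 11139 to 12371 in Control). With the replicate block both passed in limma, Gja1 as higher (0.44, adjusted p = 0.0114) and Slc1a2 as lower (-0.47, adjusted p = 0.0197). Of 6 microglial markers 1 exceeded 100 and none passed, also unadjusted (429 to 438 in Chd7 KD, 415 to 437 in Control). Of 7 vascular and fibroblast markers, 2 were below detection and none of the other 5 exceeded 100 or passed, with 1 higher at an unadjusted p below 0.05 (310 to 321 in Chd7 KD, 310 to 313 in Control). The part of these marker differences in the Zfp results was not tested.

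Most Zfp genes did not pass the test in Chd7 KD cells, and those that did were nearly all lower, by modest amounts. The falls were led by Zfp184, Zfp352, Zfp637 and Zfp512, with log2 differences of -0.43 to -0.41, and Zfp113 alone rose, by 0.49. Of the 140 Zfp probes, 18 were lower and 1 was higher in Chd7 KD cells at an adjusted p below 0.05 (limma, Benjamini-Hochberg over 20957 tested probes), and 121 did not pass. Among all tested probes 4.78% were lower and 4.06% were higher (8.84% in either direction). Among the 9320 tested probes that also exceeded 100 on all arrays, 7.68% were lower and 6.34% were higher, against 12.9% and 0.714% of the Zfp probes. The share called in either direction was 13.6% of Zfp probes and 14% of all probes above 100, so it lay near the background. By direction the calls were 18 lower and 1 higher among Zfp probes, and 716 lower and 591 higher among all probes above 100, and the difference between these splits was not tested. The median log2 difference was -0.04 over the Zfp probes, 0.0019 over all probes above 100 and 0.00081 over all tested probes. A difference below 0 was found for 85 of the 140 Zfp probes (60.7%) and for 49.6% of all probes above 100. The quartiles were -0.15 and 0.05 for Zfp probes, and -0.11 and 0.11 for all probes above 100.

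**Figure D1:**
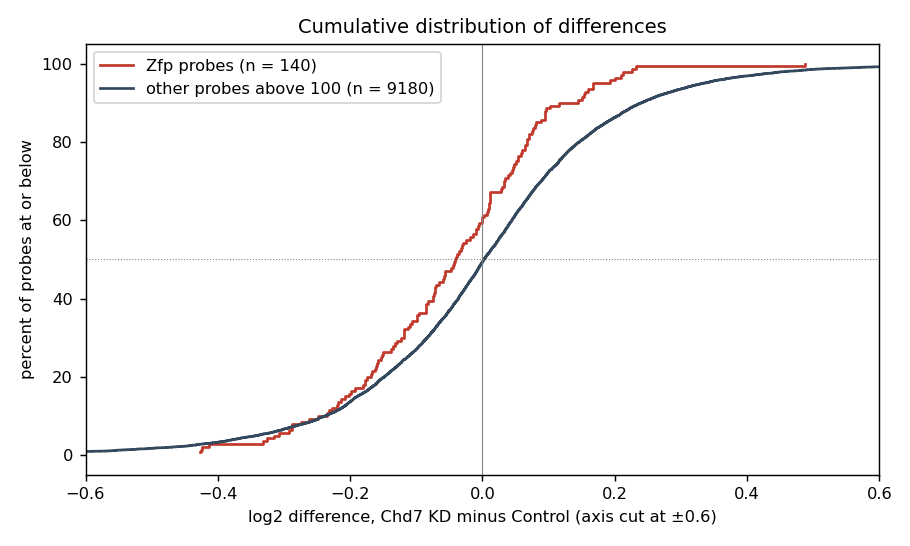
Percent of probes at or below each log2 difference (Chd7 KD minus Control) for the 140 Zfp probes (red) and the other 9180 probes above 100 on all arrays (dark), with the axis cut at 0.6 on either side. The red curve lies to the left near 0 (medians -0.04, and 0.0019 for all probes above 100) and ends at 0.49.

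The groups did not overlap, with Chd7 KD lower, for 37 Zfp probes (26.4%), against 20.4% of all probes above 100. They did not overlap, with Chd7 KD higher, for 8 Zfp probes (5.71%), against 18.7%. Of these, 19 of the lower and 7 of the higher did not pass the test. The labels number the samples 1 to 3 in each group, and samples of the same number deviated together. Within these pairs, 52 Zfp probes (37.1%) were lower in Chd7 KD in all 3, against 29.1% of all probes above 100, and 25 (17.9%) were higher in all 3, against 29.4%. With the number as a block, 24 Zfp probes were lower (17.1%, against 10.9% of all probes above 100) and 5 were higher (3.57%, against 10.5%), together 20.7% of Zfp probes and 21.5% of all probes above 100. The 19 calls made without the block all passed with it.

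**Figure D2:**
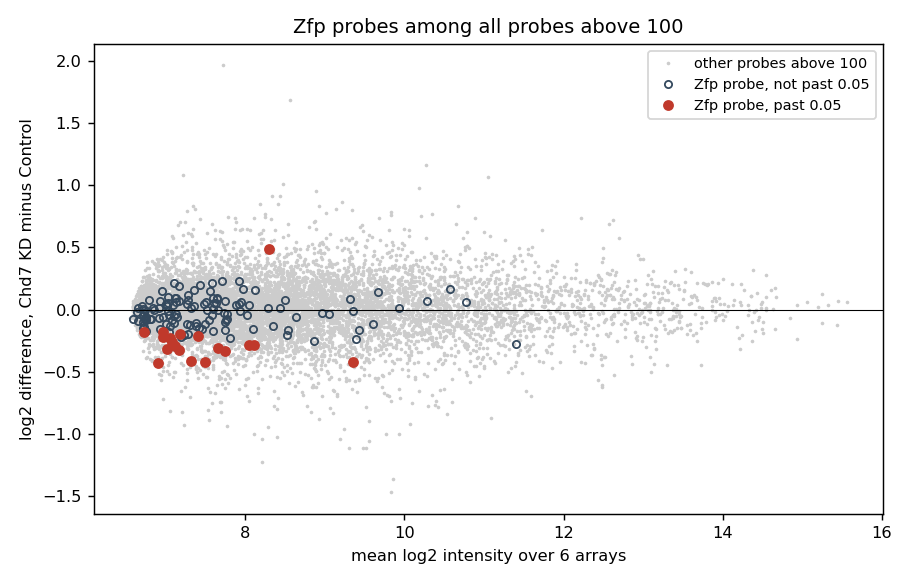
Mean log2 intensity over 6 arrays (x) against the log2 difference, Chd7 KD minus Control (y), for the other probes above 100 (grey), Zfp probes that did not pass (open) and Zfp probes past an adjusted p of 0.05 (red). The 18 lower Zfp probes lie between mean intensities of 6.73 and 9.35, with differences of -0.43 to -0.18.

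The counts rested on which arrays were used. Without 1 array, the number of lower Zfp probes was 11 (Control replicate 1), 8 (Control replicate 2), 10 (Control replicate 3), 7 (Chd7 KD replicate 1), 6 (Chd7 KD replicate 2) and 7 (Chd7 KD replicate 3), and the number of higher ones 0 or 1. In these fits the background share of lower probes among those above 100 was 3.4% to 6.55%, and that of higher probes 2.78% to 5.72%. Without Control replicates 1 to 3, the Zfp share was 7.86% (background 6.55%), 5.71% (4.35%) and 7.14% (4.86%). Without Chd7 KD replicates 1 to 3, it was 5% (3.4%), 4.29% (3.92%) and 5% (4.22%). The Zfp share thus lay not far above the background in each of these fits, and nearest to it without Chd7 KD replicate 2 or 3. These differences were not tested. The direction of all 19 calls was kept in every alternative run. As the groups of these probes did not overlap, a fit with fewer of the same arrays could not reverse it, so this adds no support. Zfp184, Zfp637, Zfp512, Zfp90 and Zfp462 passed in each of the 6 fits without 1 array, and Zfp60 was lost only without Chd7 KD replicate 2 (adjusted p = 0.0616). The other calls were lost in 3 to 6 of these fits, with adjusted p up to 0.151.

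The headers give slopes between scanner gains, which fell into 2 sets, 1 of Chd7 KD replicate 2 with Control replicates 1 and 2 (0.464 to 0.467) and 1 of Chd7 KD replicates 1 and 3 with Control replicate 3 (0.478 to 0.479). With the set as a block, 9 Zfp probes were lower (6.43%, against 5.36% of all probes above 100), a share near the background, and 1 was higher (0.714%, against 4.5%). Within each set, chosen after seeing the data, 1 array stood against 2 and was assumed to vary like the others, and 0 Zfp probes passed in limma. At an unadjusted p below 0.05, 15 were lower (10.7%, against 7.31% of all probes above 100) and 2 higher (1.43%, against 7.41%) in the first set. In the second, 27 were lower (19.3%, against 11.7%) and 4 higher (2.86%, against 11.3%). With 1 array in an arm these counts carry little weight. The median difference of the Zfp probes was -0.058 and -0.06 within the sets.

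Zfp462, which encodes a nuclear protein that in mouse embryonic stem cells works with the H3K9 methyltransferases G9a and GLP to hold heterochromatin, fell in Chd7 KD cells. Its log2 intensity was 6.87, 6.83 and 6.88 in Chd7 KD replicates 1 to 3, against 7.15, 7.11 and 7.26 in Control replicates 1 to 3. All 3 Chd7 KD arrays lay below all 3 Control arrays, with a log2 difference of -0.31 (SE 0.0552, adjusted p = 0.00982). A second Zfp462 probe was not tested, since its signal was at the level of blank spots (lowest spot median 58.97). The other chromatin genes did not pass. They were Zfp281, a repressor and activator of the pluripotency network (0.20, and adjusted p = 0.0387 with the replicate block), Zfp746, the repressor PARIS (0.12), Zfp687, a partner of Zmynd8 (0.05), Zfp451, a SUMO ligase (0.03), and Zfp644, another partner of G9a (-0.16). Zfp445, which guards imprinted methylation, read -0.01 on a bright and -0.13 on a dim probe. Of the 8 probes of 7 chromatin members, 1 was thus lower and none was higher, with 1 higher and 1 lower at an unadjusted p below 0.05 (median 0.0094). Among all probes above 100, 14% were called in either direction. At an unadjusted p below 0.05, 18% of them were lower and 15.8% higher. The difference of this small list from these shares was not tested.

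KRAB domains were not counted over the Zfp genes, so the domain is given only as background of single genes. Zfp184, whose human counterpart carries a KRAB domain, had log2 intensities of 6.72, 6.66 and 6.71 in Chd7 KD replicates 1 to 3, against 7.11, 7.04 and 7.22 in Control replicates 1 to 3. The groups did not overlap, and the log2 difference was -0.43 (SE 0.057, adjusted p = 0.00333), with the Chd7 KD signal at 74.4% of that in Control cells. Zfp90, which encodes a KRAB protein, had log2 intensities of 6.92, 7.02 and 7.06 in Chd7 KD replicates 1 to 3, against 7.33, 7.31 and 7.34 in Control replicates 1 to 3. Its 3 Control arrays had an SD of 0.015 and lay above every Chd7 KD array, with a difference of -0.33 (SE 0.0539, adjusted p = 0.0077). Zfp454, whose human counterpart has a KRAB domain, read 6.99, 6.96 and 6.97 in Chd7 KD replicates 1 to 3, against 7.19, 7.20 and 7.40 in Control replicates 1 to 3. It fell by 0.29 on the log2 scale (SE 0.0651, adjusted p = 0.0262), with the highest Control value in replicate 3. Zfp606, also a KRAB gene in human, read 6.83, 6.87 and 6.88 in Chd7 KD replicates 1 to 3, against 7.08, 7.11 and 7.05 in Control replicates 1 to 3. No arrays of its groups overlapped, and the difference was -0.22 (SE 0.0459, adjusted p = 0.0208). Zfp37, a KRAB gene known from mouse brain and testis, read 7.31, 7.27 and 7.33 in Chd7 KD replicates 1 to 3, against 7.52, 7.50 and 7.53 in Control replicates 1 to 3. Within each group its values were close (SD 0.032 in Chd7 KD and 0.016 in Control, n = 3 each), with a difference of -0.21 (SE 0.0504, adjusted p = 0.0318).

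**Figure D3:**
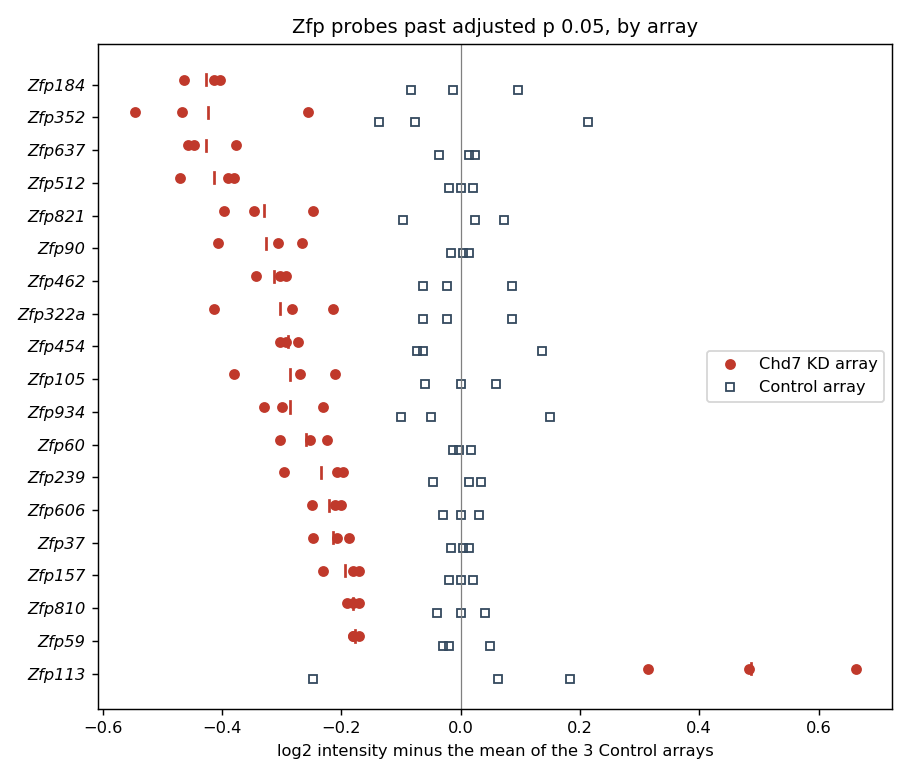
Log2 intensity minus the mean of the 3 Control arrays for the 19 Zfp probes past an adjusted p of 0.05, with Chd7 KD arrays as filled red circles (bar, their mean) and Control arrays as open squares. In each of the 18 upper rows every red circle lies left of every square, and for Zfp113, at the bottom, every circle lies right of them.

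Zfp637 and Zfp239 stand next to each other in the RefSeq order of protein-coding genes, and both fell. Zfp637 had log2 intensities of 9.12, 9.19 and 9.11 in Chd7 KD replicates 1 to 3, against 9.53, 9.59 and 9.58 in Control replicates 1 to 3. The groups stood well apart, with a difference of -0.42 (SE 0.0659, adjusted p = 0.00591). Zfp239 encodes MOK2, which binds both DNA and RNA, and read 6.97, 6.87 and 6.96 in Chd7 KD replicates 1 to 3, against 7.20, 7.12 and 7.18 in Control replicates 1 to 3. Its difference was -0.23 (SE 0.0522, adjusted p = 0.0267), and the arrays of the groups did not overlap. Among members there were 15 such adjacent pairs, of which this was the 1 pair with both genes lower, and 3 pairs held at least 1 lower gene. In the other 2 of them, Zfp60 (-0.26) lies beside Zfp607b (-0.21), and Zfp934 (-0.29) beside Zfp935 (-0.04). Zfp607b did not pass in limma (adjusted p = 0.0836) but passed with the replicate block (adjusted p = 0.0447). Of 73 probes whose gene has a Zfp gene as its nearest protein-coding neighbour on either side, 9 were lower and 0 higher in limma (1 higher at an unadjusted p below 0.05). Of 67 probes with no such neighbour, 9 were lower and 1 was higher (5 higher at an unadjusted p below 0.05). The medians of these sets were -0.048 and -0.031, and both held 9 lower probes. As background, 7.68% of all probes above 100 were lower and 6.34% higher, with 15.8% higher at an unadjusted p below 0.05.

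Zfp60 itself read 6.96, 6.91 and 6.99 in Chd7 KD replicates 1 to 3, against 7.23, 7.20 and 7.21 in Control replicates 1 to 3, a difference of -0.26 (SE 0.0484, adjusted p = 0.0124). Zfp59, from the same neighbourhood (Zfp626 lies between them), read 6.87, 6.88 and 6.87 in Chd7 KD replicates 1 to 3, against 7.10, 7.02 and 7.03 in Control replicates 1 to 3. The Chd7 KD arrays of both genes lay below all Control arrays, and for Zfp59 the difference was -0.18 (SE 0.0466, adjusted p = 0.0471). Zfp934 read 7.96, 7.89 and 7.86 in Chd7 KD replicates 1 to 3, against 8.34, 8.09 and 8.14 in Control replicates 1 to 3. It was the call nearest the threshold, at -0.29 (SE 0.0764, adjusted p = 0.0495), with a high Control replicate 1 (adjusted p = 0.145 at most in fits without 1 array).

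Zfp352, which is switched on in mouse embryos at the onset of zygotic transcription, read 7.16, 7.45 and 7.24 in Chd7 KD replicates 1 to 3, against 7.92, 7.63 and 7.57 in Control replicates 1 to 3. Its spread was wide (SD 0.15 in Chd7 KD and 0.18 in Control, n = 3 each), and the difference was -0.43 (SE 0.104, adjusted p = 0.036). The call did not hold in the authors' deposited values (adjusted p = 0.0611), with the same direction. Among the other lower genes, Zfp821, Zfp454, Zfp105 and Zfp934 also did not pass there (adjusted p = 0.0541, 0.0581, 0.0786 and 0.0833 in limma). Zfp322a, which in mouse embryonic stem cells activates pluripotency genes, read 7.40, 7.53 and 7.60 in Chd7 KD replicates 1 to 3, against 7.90, 7.75 and 7.79 in Control replicates 1 to 3. The groups did not overlap, with a difference of -0.31 (SE 0.0702, adjusted p = 0.0282).

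The remaining genes that fell have no role stated here. Zfp512 read 7.15, 7.14 and 7.06 in Chd7 KD replicates 1 to 3, against 7.51, 7.55 and 7.53 in Control replicates 1 to 3. It had the smallest adjusted p of all Zfp probes, at -0.41 (SE 0.0516, adjusted p = 0.0025), and the Chd7 KD signal was 75.1% of that in Control cells. Zfp821 read 7.66, 7.56 and 7.51 in Chd7 KD replicates 1 to 3, against 7.81, 7.93 and 7.98 in Control replicates 1 to 3, a difference of -0.33 (SE 0.0672, adjusted p = 0.0179). Zfp105 read 8.05, 7.99 and 7.88 in Chd7 KD replicates 1 to 3, against 8.26, 8.20 and 8.32 in Control replicates 1 to 3. Its difference was -0.29 (SE 0.068, adjusted p = 0.032), and in both genes the groups stood apart on every array. In the fits without 1 array, the call of Zfp105 was lost in 6 and that of Zfp821 in 4. Zfp157 read 7.10, 7.05 and 7.11 in Chd7 KD replicates 1 to 3, against 7.30, 7.26 and 7.28 in Control replicates 1 to 3, and its difference was -0.19 (SE 0.0485, adjusted p = 0.0408). Zfp810 read 6.63, 6.65 and 6.64 in Chd7 KD replicates 1 to 3, against 6.86, 6.78 and 6.82 in Control replicates 1 to 3, which lies near the dim end of the probes kept. The difference of Zfp810 was -0.18 (SE 0.0428, adjusted p = 0.0322), and its lowest spot median was 103.5. The authors' deposited values, which carry no offset, give larger differences for dim probes, for example -0.37 for Zfp810 and -0.79 for Zfp184.

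Zfp113 was the 1 Zfp probe that rose. Its log2 intensity was 8.54, 8.72 and 8.37 in Chd7 KD replicates 1 to 3, against 8.24, 8.12 and 7.81 in Control replicates 1 to 3. Each Chd7 KD array lay above each Control array, although both groups were spread (SD 0.18 in Chd7 KD and 0.22 in Control, n = 3 each), and in both groups replicate 3 was lowest. The log2 difference was 0.49 (SE 0.123, adjusted p = 0.0411). The adjusted p was 0.0033 with the replicate block, 0.118 in the authors' deposited values and up to 0.132 in fits without 1 array.

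Zinc finger proteins of RNA and the ribosome did not pass in either direction. Of 15 listed genes, 11 were members, and 0 of their 11 probes were called in limma, with 1 higher and 2 lower at an unadjusted p below 0.05 (median -0.0074). The shares over all probes above 100 were 14% called, and 15.8% higher and 18% lower unadjusted. With 11 probes, the difference from these shares was not tested. Zfp326, which couples transcript elongation to splicing, read 8.73, 8.74 and 8.73 in Chd7 KD replicates 1 to 3, against 8.91, 8.92 and 9.12 in Control replicates 1 to 3. Its groups did not overlap (difference -0.25, adjusted p = 0.0742), and it passed with the replicate block (adjusted p = 0.0496). Zfp277 read -0.24 (adjusted p = 0.0637, and 0.0575 with the block). Zfp346, which binds double-stranded RNA, read 0.21 (adjusted p = 0.105) and passed with the block (0.0288). Zfp598, the ubiquitin ligase that marks collided ribosomes, read -0.01, the ribosome assembly factor gene Zfp593 0.05, and Zfp207, which binds spindle microtubules and Bub3, -0.12. Zfp106 (-0.04), Zfp638 (-0.20), Zfp830 (0.05), the nucleolar protein gene Zfp330 (0.14) and Zfp706 (0.17) were the others.

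Zinc finger genes of neural development were represented by 3 of 13 listed genes, and none passed, with 2 lower at an unadjusted p below 0.05. Over all probes above 100, 14% were called and 18% were lower unadjusted, and 3 probes are too few to set against these shares. Zfp503, which acts in striatal development, read 7.35, 7.39 and 7.40 in Chd7 KD replicates 1 to 3, against 7.42, 7.54 and 7.66 in Control replicates 1 to 3. The groups did not overlap, but the difference did not pass, at -0.16 (SE 0.0676, adjusted p = 0.192). Zfp521, which drives mouse embryonic stem cells towards the neural fate, read 7.33, 7.39 and 7.22 in Chd7 KD replicates 1 to 3, against 7.45, 7.44 and 7.46 in Control replicates 1 to 3. Its groups also did not overlap, with a difference of -0.14 (SE 0.0584, adjusted p = 0.196). Zfp292 read -0.08 (SE 0.136), with a Control SD of 0.33, and was 0.061 without Control replicate 3.

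Genes listed here as promoter-bound activators showed no call. Of 14 listed genes 9 were members, 0 of 9 passed in limma, and none reached an unadjusted p below 0.05 (differences -0.10 to 0.09, median -0.00046). For all probes above 100 the shares were 14% called, and 18% lower and 15.8% higher unadjusted. The difference of these 9 probes from them was not tested. Zfp410, which in mouse and human cells activates Chd4, read 0.07 (SE 0.0595). Zfp148, which binds GC-rich promoters, read 0.09, Zfp341, an activator of Stat3, 0.00, and Zfp64, known from human leukaemia cells as an activator of the MLL gene, -0.08. The others were Zfp131 (-0.10), Zfp523 (-0.04), Zfp395 (-0.01), Zfp740 (0.06) and Zfp263 (0.07).

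**Figure D4:**
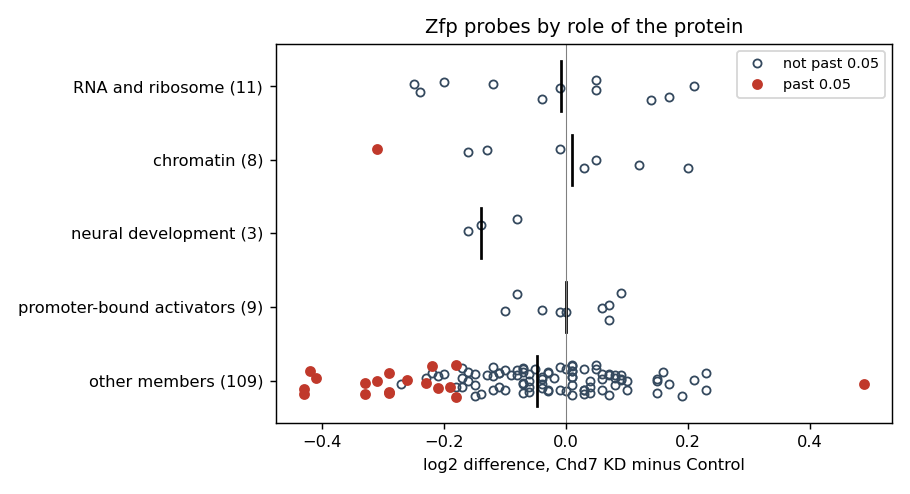
Log2 difference (Chd7 KD minus Control) of each Zfp probe by role list, with the number of probes in brackets, filled red points for probes past an adjusted p of 0.05 and a black bar at the median. Beside Zfp462 in the chromatin row (-0.31), every call lies among the 109 probes of members in no list, with 17 lower and 1 higher. The lists hold only 3 to 11 probes each, and 14% of all probes above 100 were called. Points are shifted vertically at random.

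With the replicate block, 10 further Zfp probes passed. The 6 lower ones were Zfp971 (-0.27, adjusted p = 0.0281), Zfp326, Zfp286 (-0.22, 0.0313), Zfp607b, Zfp984 (-0.17, 0.0306) and Zfp946 (-0.15, 0.0498). The 4 higher ones were Zfp800 (0.23, adjusted p = 0.029), Zfp961 (0.21, 0.0345), Zfp346 and Zfp281. Zfp984 read 6.50, 6.60 and 6.92 in Chd7 KD replicates 1 to 3, against 6.69, 6.74 and 7.10 in Control replicates 1 to 3, so the groups overlapped while each pair was lower in Chd7 KD. Its other, dimmer probe went the opposite way and also passed with the block (0.10, adjusted p = 0.0372), so the probes of Zfp984 disagree. The differences of the 121 probes that did not pass without the block ran from -0.27 to 0.23, with 67 below 0 and 54 above.

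The Zfp probes of highest signal were Zfp971 (mean log2 intensity 11.40), Zfp428 (10.77), Zfp706 (10.57), Zfp932 (10.29) and Zfp959 (9.94). Signals of different probes are not levels of the genes relative to each other. None of the 5 passed without the block, with differences of -0.27, 0.06, 0.17, 0.07 and 0.01 in the same order. Zfp971 had 11.17, 11.38 and 11.24 in Chd7 KD replicates 1 to 3, against 11.43, 11.69 and 11.49 in Control replicates 1 to 3. Its groups did not overlap (adjusted p = 0.106).

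Members with several probes allow a look at agreement within a gene. Zfp445, Zfp777 and Zfp385c had 2 probes above 100 and Zfp944 had 3, none of which passed. Zfp777 read -0.12 and -0.07, and Zfp944 -0.06, 0.01 and 0.03. The Zfp385c probes pointed in opposite directions, at -0.12 and 0.10, each with groups that did not overlap. A further 12 probes of 12 member genes had a spot median of 100 or less on some array, 11 of them were tested and 0 passed in limma. The lowest adjusted p was 0.0725, for Zfp28 at -0.14, against 0.10 for its brighter probe, which did not pass either. With the replicate block 2 of them passed, Zfp984 at 0.10 (adjusted p = 0.0372, against -0.17 for its brighter probe) and Zfp82 at -0.13 (adjusted p = 0.0445, against 0.09 for its brighter probe, which did not pass). Of the genes that fell, Zfp462 alone had a further probe on the array, so each of these calls rests on 1 probe. Zfp probes not above 100 on all arrays numbered 190 tested, of which 1 was lower and 1 was higher (0.526% each), with a median difference of -0.011. All tested probes, the brighter ones included, were lower in 4.78% and higher in 4.06%. A share over all probes not above 100 was not counted, so the 0.526% stands without a like background.

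The co-repressor machinery that KRAB proteins use was measured with 24 of 27 listed genes, each by its probe of highest signal. Of these, 1 was higher, 1 was lower and 22 did not pass, against 6.34% higher and 7.68% lower among all probes above 100. Of the 24 values 19 were below 0 (median -0.073), where 49.6% of all probes above 100 were below 0, and at an unadjusted p below 0.05 there were 2 higher and 6 lower. At that level 15.8% of all probes above 100 were higher and 18% were lower, and the difference of the list from these shares was not tested. The core partners read -0.01 for Trim28 (SE 0.0894) and 0.04 for Setdb1 (SE 0.06). Mphosph8, the chromodomain subunit of the HUSH silencing complex, fell to a mean log2 intensity of 7.33 ± 0.027 in Chd7 KD cells, against 7.71 ± 0.044 in Control cells (SD, n = 3 each). Its difference was -0.37 (SE 0.0533, adjusted p = 0.00446), and it passed in each fit without 1 array. Chd3, a remodeller of the NuRD complex, read 8.27, 8.22 and 8.42 in Chd7 KD replicates 1 to 3, against 7.99, 8.02 and 7.97 in Control replicates 1 to 3, a rise of 0.30 (SE 0.0692, adjusted p = 0.0279 in limma). That call was lost in 5 of the 6 fits without 1 array (adjusted p up to 0.086), with Chd7 KD replicate 2 the exception, and in the authors' deposited values. Chd4, the target of Zfp410, read -0.27 (adjusted p = 0.068) and passed with the replicate block (0.0464).

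**Figure D5:**
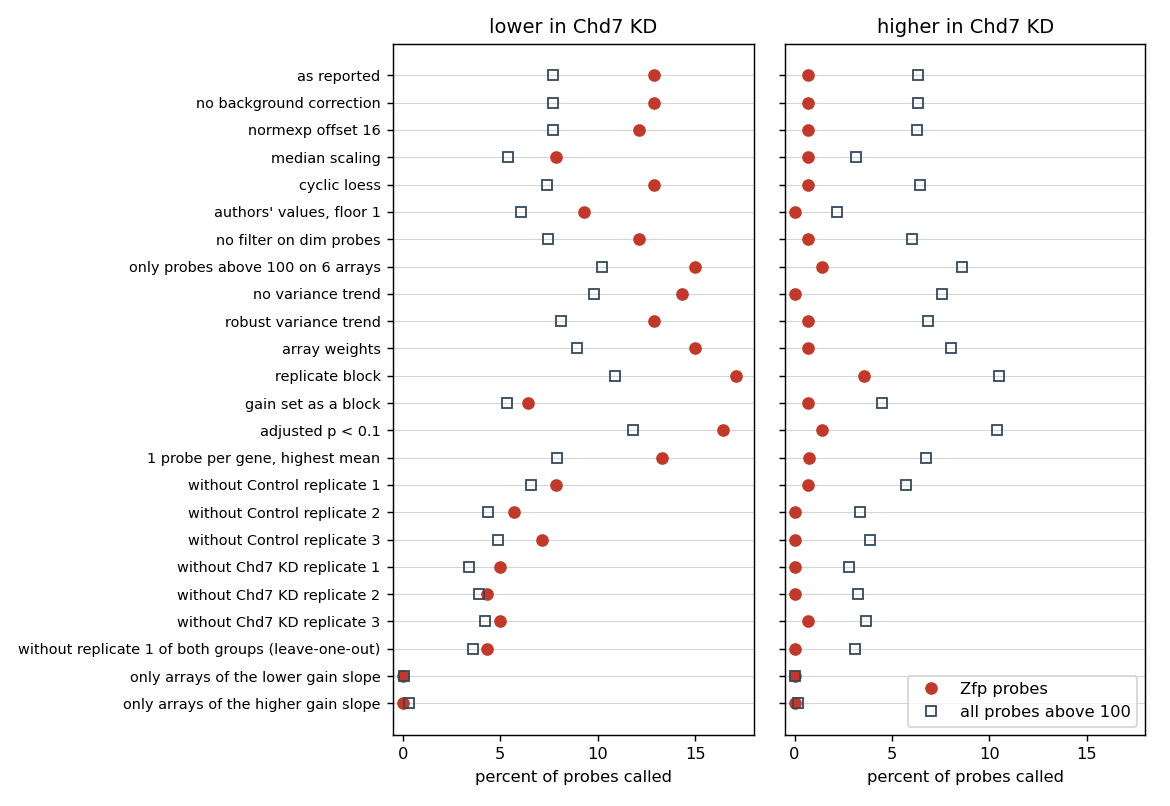
Percent of probes called lower (left) and higher (right) in Chd7 KD for Zfp probes (filled red) and for all probes above 100 (open) as reported and under each alternative. In the left panel the Zfp share lies above the open square in every row except the 2 at the bottom, where arrays of 1 gain set were used and 0 Zfp probes passed; in the right panel it lies below the open square.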

How the data were processed

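RNA of the 6 samples was labelled with Cy5 and hybridised to one-colour arrays, per the labels' protocols. The deposited intensity is a spot's median brightness at 635 nm, and the authors' scanner combined 3 gains by least squares (per the file headers). Local background, also deposited as an intensity, tracked the spots (correlation of logs 0.957 to 0.981) and was not used. Normexp correction used no local background and an offset of 50, which shrinks the differences of dim probes. Quantile normalization followed, then log2 values of the spots of a probe were averaged (R 4.3.3, limma 3.58.1, statmod 1.5.0). A probe was tested if it lay 2 SD above the blank mean on at least 3 arrays, and 1 probe marked bad at every gain was left out, which gave 20957 tested probes. All 140 Zfp probes were tested. With 3 arrays a group, their number limits precision.

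Groups were compared with lmFit and eBayes (with a trend), two-sided, with Benjamini-Hochberg adjustment over all tested probes. The authors' deposited processed intensity values were an alternative. Each column followed the spot signal less the mean of the blank spots, scaled to a median of 25, within 1 unit plus 1% (100% of values), which no source states. They are linear, not centred per gene, and hold single arrays rather than ratios. Symbols came from the platform annotation (20690 probes with 1 symbol, 2783 with none), and all 135 Zfp genes matched RefSeq (GRCm38.p6) by Entrez ID with 0 changed symbols. Samples of the same number had correlated deviations from the group means (0.37, 0.39 and 0.22), so the numbers were taken to pair the samples, a pairing inferred from the data.

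The Zfp genes, role lists and tests were chosen with earlier results of these data known. Named were Chd7, the 12 lower Zfp probes with the largest changes, the 1 higher one, every member of the role lists, the called co-repressor genes (others of that list were added after their values were seen), the genes at the limit and the 5 brightest probes. The 6 other lower probes, those called with the block but not without it, and further examples were named after their values were seen. Counts of zinc fingers and KRAB domains from protein sequences were planned and not made here. The fits with and without the block were run on simulated data with independent errors. No pair or gain-set effect was simulated, so the use of the block was not tested there. Without the block, 29.9% of 1.25-fold, 82.1% of 1.5-fold and 95.5% of 2-fold changes were recovered. With it, the shares were 4.48%, 55.2% and 90.9%. Modest changes can thus fail to pass. Figures were drawn with matplotlib 3.10.9.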

Additional observations from a re-analysis of the deposited data

How the results depend on the processing

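With 140 Zfp probes the direction of all 19 calls was kept in the 23 alternatives, and no called value changed sign. For fits on fewer of the same normalized arrays this was fixed in advance, since the groups of these 19 probes did not overlap. Across the named genes, 157 of 1241 values fell below the threshold and 12 rose past it, and values that passed in neither fit changed sign 39 times, in 14 genes. The number of lower Zfp probes was 18 as reported (12.9%, against 7.68% of all probes above 100) and 13 in the authors' values (9.29%, against 6.04%). It was 17 to 18 with no background correction, an offset of 16, cyclic loess, no filter, a robust variance trend or 1 probe per gene (12.1% to 13.3%, against 7.39% to 8.09%). With no variance trend, array weights, only probes above 100, a threshold of 0.1 or the replicate block it was 20 to 24 (14.3% to 17.1%, against 8.94% to 11.8%). It was 11 with median scaling (7.86%, against 5.38% of all probes above 100) and 9 with the gain set as a block (6.43%, against 5.36%). Leaving out 1 array, or both numbered 1, gave 6 to 11 lower and 0 to 1 higher probes. The lower share was 4.29% to 7.86% there, against 3.4% to 6.55% of all probes above 100. The higher share was 0 to 0.714%, against 2.78% to 5.72%. The number higher was 0 in the authors' values (against 2.18% of all probes above 100) and without the variance trend (against 7.56%). It was 2 with only probes above 100 (1.43%, against 8.59%) or a threshold of 0.1 (1.43%, against 10.4%). With the replicate block 5 were higher (3.57%, against 10.5%), and all 19 calls passed. Alternatives chosen after seeing the data used arrays of 1 gain set, with 1 array against 2. There 0 Zfp probes passed in limma in either direction, the median Zfp difference was -0.058 (lower slopes) and -0.06 (higher slopes), and Chd7 read -0.88 with adjusted p = 0.145 at the lower slopes. In the authors' values the median Zfp difference was -0.097, against -0.033 for all probes above 100. Blank spots had a log2 intensity of 5.7 to 5.71 after normalization, against 6.73 for the dimmest lower probe.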
